A study of Caenorhabditis elegans with 2 samples.

Results

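The 346 genes that the Ensembl WBcel235 annotation of Caenorhabditis elegans calls snoRNA were examined for nearby binding of the transcription factor EYG-1, out of 46890 annotated nuclear genes. All snoRNA genes were kept, whether or not a region lay near them. A gene was counted as having a region when the summit of a called region, its highest point, lay inside it or at most 100 bp from either end. By position, 178 of the genes lay within an intron of a protein-coding gene, 150 on the strand of the host gene and 28 on the opposite strand only. The other 168 comprised 124 that overlapped no protein-coding gene and 44 that overlapped one without lying in an intron. Chromatin immunoprecipitation sequencing (ChIP-seq) had been done on whole late embryos of strain OP443, hermaphrodites taken 4 hours after synchronization by bleaching of eggs. These worms express EYG-1 (sequence name Y53C12C.1) from a transgene with a GFP and FLAG tag at the C-terminus, and the GFP was the target of the antibody. The series holds 1 group of 2 libraries, biological replicates 1 and 3, so no test between groups was possible. The signal comes from whole animals, and the cells that gave it are not known.

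Small nucleolar RNAs guide the chemical modification of other RNAs, chiefly ribosomal RNA. Those of the C/D class direct methylation of the ribose, and those of the H/ACA class direct conversion of uridine to pseudouridine. Many are processed from the introns of host genes, while others have promoters of their own. In tRNA genes, transcription by RNA polymerase III depends on an A box and a B box inside the gene, which the factor TFIIIC binds, and it ends at a run of T. Budding yeast SNR52 carries such boxes in a leader ahead of the snoRNA, and RNA polymerase III promoters of this type have also been described for a subset of C. elegans snoRNA genes.

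The DNA just upstream of many of the snoRNA genes with the strongest regions held matches to the A and B boxes of tRNA genes. The 6 sequences that follow belong to the 6 genes with the highest signal among those that had both boxes and a summit in the optimal list, the authors' most stringent list, and that lay on chromosomes II to V or X. Each runs 5′ to 3′ on the strand of the snoRNA gene, from 85 bp before the annotated 5′ end to the first 10 bases of the gene, in WBcel235. Capitals mark the A box, on the left, and the B box, on the right, at the threshold given below, the loosest of those tried. They are W03C9.9 (chrII:11960813-11960907, plus strand), Y43F8C.22 (chrV:19643178-19643272, minus strand), T03F7.8 (chrV:11314173-11314267, plus strand), Y38F2AR.14 (chrIV:2408626-2408720, minus strand), C41C4.11 (chrII:8107261-8107355, minus strand) and M106.6 (chrII:10840232-10840326, plus strand).
W03C9.9: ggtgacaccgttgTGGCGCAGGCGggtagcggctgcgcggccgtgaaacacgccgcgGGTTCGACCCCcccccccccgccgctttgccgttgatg
Y43F8C.22: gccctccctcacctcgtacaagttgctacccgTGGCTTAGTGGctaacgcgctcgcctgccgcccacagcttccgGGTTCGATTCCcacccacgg
T03F7.8: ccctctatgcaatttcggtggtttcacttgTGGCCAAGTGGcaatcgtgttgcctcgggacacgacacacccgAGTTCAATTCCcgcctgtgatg
Y38F2AR.14: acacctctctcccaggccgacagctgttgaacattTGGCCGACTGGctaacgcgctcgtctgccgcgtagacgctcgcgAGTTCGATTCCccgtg
C41C4.11: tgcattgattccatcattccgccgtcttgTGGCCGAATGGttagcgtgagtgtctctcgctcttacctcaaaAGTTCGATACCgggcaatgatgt
M106.6: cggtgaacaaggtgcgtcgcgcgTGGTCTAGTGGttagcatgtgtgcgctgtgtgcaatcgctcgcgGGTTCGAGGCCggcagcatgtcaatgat

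For comparison, 4 more sequences are shown in the same way. The first is the whole tRNA gene WBGene00014333 (chrX:9743589-9743660, plus strand), which had the highest optimal signal, 208, among tRNA genes under 80 bp on the same chromosomes. F11A10.9 (chrIV:12086624-12086718, plus strand) had both boxes and a region in the pooled list but none in the optimal list. D1046.6 (chrIV:8927180-8927274, plus strand) had an optimal summit upstream and no match to either box at the threshold used. C08D8.3 (chrV:8349023-8349117, plus strand), in an intron of C08D8.1, had no region in any list and no box, and its window holds no protein-coding exon and no other non-coding gene.
WBGene00014333: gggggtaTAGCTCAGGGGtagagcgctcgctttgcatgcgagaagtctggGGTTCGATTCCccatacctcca
F11A10.9: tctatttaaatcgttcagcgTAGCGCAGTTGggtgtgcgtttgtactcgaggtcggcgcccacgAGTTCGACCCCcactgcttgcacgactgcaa
D1046.6: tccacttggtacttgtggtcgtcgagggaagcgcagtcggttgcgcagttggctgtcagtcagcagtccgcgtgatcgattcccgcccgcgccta
C08D8.3: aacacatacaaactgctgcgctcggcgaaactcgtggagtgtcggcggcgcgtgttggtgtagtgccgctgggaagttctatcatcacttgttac

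Of the 346 snoRNA genes, 49 (14.2%) had a summit of the optimal list within 100 bp, beside 1.18% of all nuclear genes. In the pooled list, called on both libraries together without a strict threshold, the count was 111 (32.1%), beside 22.9% of all genes. Replicate 1 gave 99 genes (28.6%) and replicate 3 also gave 99 (28.6%), beside 25.6% and 23.8% of all genes. The share of snoRNA genes was therefore far above the background in the optimal list and nearer to it in the permissive lists. A total of 207 genes had no region in any of the 4 lists, a count not made for all nuclear genes. Among biotypes, the optimal share was higher only for tRNA genes, at 17.2% of 612, and was 3.88% of 129 small nuclear RNA genes, 2.40% of 7764 other non-coding RNA genes and 0.991% of 19973 protein-coding genes.

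**Figure D1:**
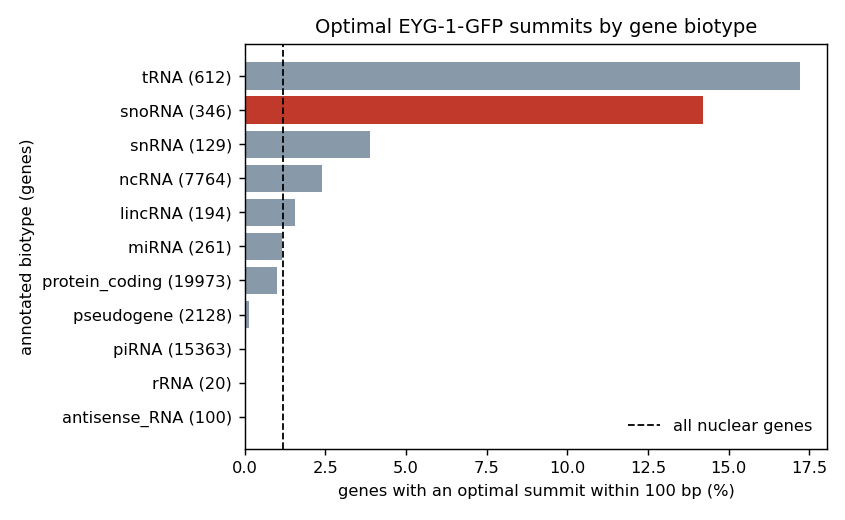
Percent of annotated nuclear genes with an optimal summit within 100 bp (horizontal axis) for each biotype (vertical axis, number of genes in parentheses); the dashed line is the share of all nuclear genes, 1.18%. The bars for tRNA (17.2%) and snoRNA genes (14.2%) stand apart from the others, none of which passes 3.88%.

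The share was close inside and outside introns. Of the 178 intronic genes 25 (14.0%) had an optimal summit, and of the 168 others 24 (14.3%). Within introns the counts were 18 of 150 (12%) on the host's strand and 7 of 28 (25%) on the opposite strand. Outside introns they were 19 of 124 (15.3%) for genes between protein-coding genes and 5 of 44 (11.4%) for genes that overlapped one. The median optimal signal, the authors' peak height, was 147 for intronic genes and 144 for the others, with ranges of 76.5 to 406 and 71.8 to 406. Both medians exceeded that of the whole optimal list, 91.6, and 40 of the 49 genes were above it. Protein-coding genes started within 500 bp of 9 of these 49 genes and of 58 of the 297 without an optimal summit.

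By length, 26 of the 93 snoRNA genes shorter than 100 bp (28.0%) had an optimal summit, and 23 of the 253 longer ones (9.09%). Class was read from short sequence signs. A gene was called C/D-type with TGATGA in the first 20 bases and CTGA in the last 15, and H/ACA-type with ACA near the 3′ end. The rule left 236 genes unclassified, of which 27 (11.4%) had an optimal summit. The counts were 4 of 14 C/D-type genes (28.6%) and 18 of 96 H/ACA-type genes (18.8%). These calls were not checked against known classes, and some may be wrong. The H/ACA-type calls include short genes such as M106.6 (75 bp). By chromosome, chromosome V had the highest share, 13 of 55 genes (23.6%). None of the 33 snoRNA genes on X had an optimal summit, although 6 of them had a pooled region. The share of all genes was not counted by chromosome.

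Summits lay on the 5′ side. For the 49 genes the median optimal summit was 50 bp upstream of the annotated 5′ end (position -50, quartiles -63 and -32). Of these summits 43 were upstream, and all 43 lay between 90 and 15 bp before the gene. A further 5 lay inside the gene and 1 lay beyond the 3′ end. The median was -40 for intronic and -52 for other genes, with quartiles of -54 and -24 against -65.5 and -39.8, so the ranges overlapped widely. In the pooled list the median over 111 genes was -34, with wider quartiles of -54.5 and 30.5.

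**Figure D2:**
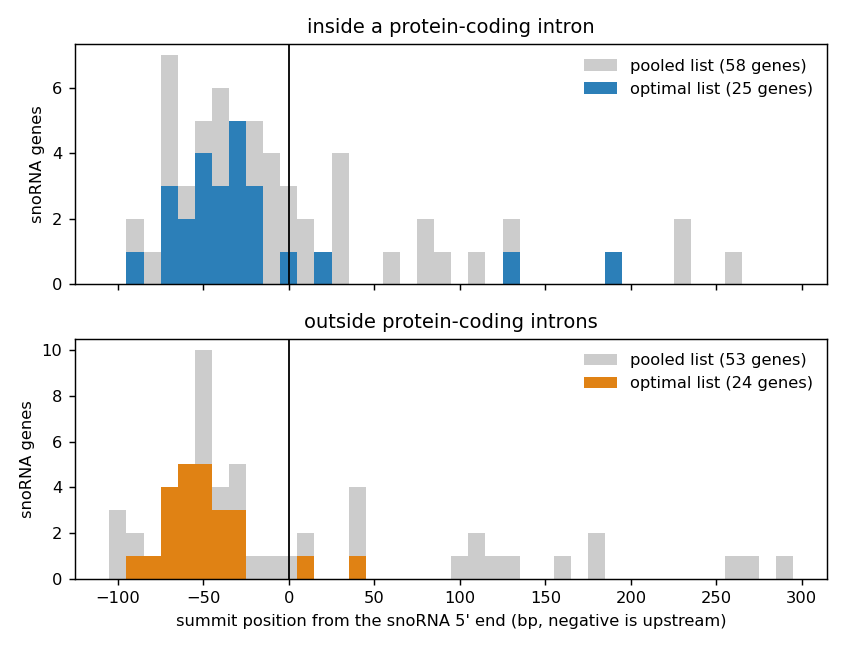
Number of snoRNA genes (vertical axis) by position of the summit from the 5′ end in bp (horizontal axis, negative is upstream), for intronic genes (top) and the others (bottom); grey bars show the strongest pooled region per gene and coloured bars the strongest optimal one. The optimal summits pile up between 90 and 15 bp upstream in both panels, with medians of -40 and -52.

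The 5 genes with an optimal summit inside them were C51F7.4 (position 37), ZK994.7 (1), K11C4.6 (17), W06H8.17 (13) and F07A11.15 (193). C51F7.4 and C51F7.3 are neighbours in the span of frm-7 and share 1 summit, which is 72 bp upstream of C51F7.3. It was the only optimal summit with more than 1 snoRNA gene. At B0334.12, on the opposite strand of an intron of twk-5, the summit was at 129, beyond the 3′ end of the 70 bp gene. W03C9.9 was the only gene with more than 1 optimal summit in reach.

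The strongest region, at C51F7.4 and C51F7.3, had signals of 406 in the optimal list, 418 in the pooled list, 144 in replicate 1 and 272 in replicate 3. It ranked 3 in both replicates. W03C9.9, which lies between protein-coding genes, had 322, 329, 123 and 200 in the same order, and ranked 5 and 10 in replicates 1 and 3. Both loci were thus near the top of either library.

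T06C12.16, also between protein-coding genes, had an optimal signal of 307, with 78.2 in replicate 1 (rank 25) and 221 in replicate 3 (rank 5). ZK265.10, of the same kind, had 288 in the optimal list, 90.9 in replicate 1 (rank 15) and 210 in replicate 3 (rank 7). T02E1.9, with 202, ranked 190 in replicate 1 and 16 in replicate 3, a less even pair of ranks. The remaining genes among the 12 strongest outside introns were C41C4.11 (optimal signal 174), T19B4.8 (168), C46C2.8 (164), H09I01.2 (152), T27A3.9 (147), F32E10.10 (145) and Y75B12B.12 (145). Their ranks ran from 66 to 148 in replicate 1 and from 31 to 101 in replicate 3.

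Among intronic genes, Y43F8C.22 in Y43F8C.7 had an optimal signal of 246, with 64.3 in replicate 1 (rank 65) and 161 in replicate 3 (rank 14). T03F7.8, on the opposite strand of an intron of cutl-18, had 245, with 113 (rank 7) and 133 (rank 23). ZK994.7, in pxn-1, had 231, with 42.6 (rank 243) and 172 (rank 13), the least even of the strong intronic genes. B0334.12 (optimal signal 191), Y38F2AR.14 (176), M106.6 in mix-1 (173) and ZK484.9 in haf-9 (173) ranked from 36 to 68 in replicate 1 and from 26 to 54 in replicate 3.

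A region was present in both replicate lists at 64 snoRNA genes, in replicate 1 alone at 35 and in replicate 3 alone at 35. Over the 64, Spearman's rho between the signals was 0.896, and it was 0.781 over the 44 of these with an optimal summit. These are descriptions over sites that share the same 2 libraries, and they leave out the genes found in 1 replicate alone. The optimal list was itself selected by a cutoff on rank agreement. Being on it does not mean a region in both replicate lists, which 44 of the 49 genes had. The 49 genes had a median signal of 46.8 in replicate 1 (46 genes, range 19.2 to 144) and of 95.3 in replicate 3 (47 genes, range 17.2 to 272), and the scales of the lists are not comparable. The 62 genes with only a pooled region had medians of 14.6 (35 genes) and 17.3 (42 genes). Of the 49 genes, 37 ranked within the first 519 regions, the size of the optimal list, in both replicates. No region was within 100 bp in replicate 1 for C04G6.12, C27H6.5 and K11C4.6, nor in replicate 3 for F38E11.14 and F59C6.15. The most uneven ranks were those of F07A11.15 (1060 in replicate 1 and 4221 in replicate 3), F30H5.4 (1799 and 140), T24H7.6 (1225 and 367), Y37E3.20 (837 and 222) and F12F6.11 (746 and 178).

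**Figure D3:**
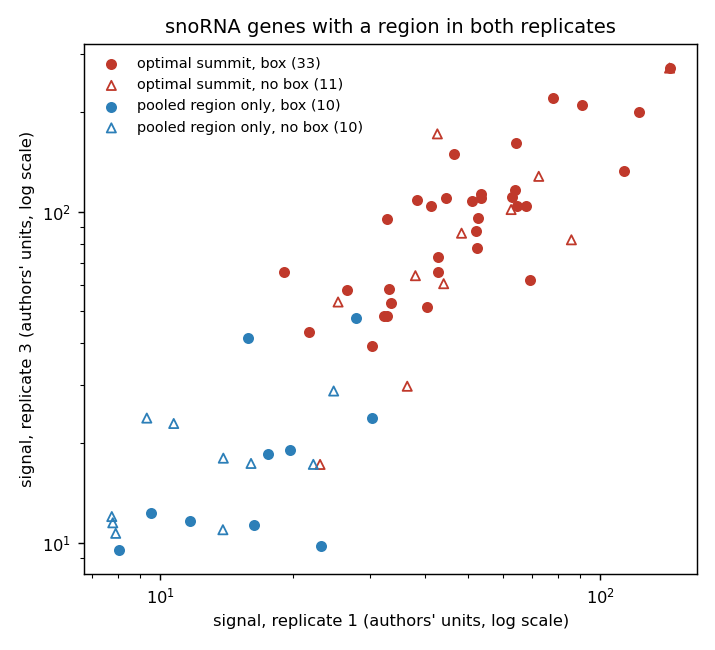
Signal in replicate 3 against signal in replicate 1 (authors' units, both axes logarithmic) for the snoRNA genes with a region in both replicate lists; colour gives the list status and filled circles the genes with an A or B box match upstream. Genes with an optimal summit lie toward the upper right, and Spearman's rho over the 64 genes is 0.896.

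Near the 100 bp limit, the members farthest from their summit were F38E11.14 (89 bp), ZK265.10 (87 bp) and W03C9.9 (79 bp, to the stronger of its summits). The nearest genes beyond it were M7.15 (132 bp), C26C6.13 (157 bp) and Y17G7B.25 (194 bp).

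To describe the upstream sequence, the A and B boxes were modelled on the 612 annotated nuclear tRNA genes, as the base frequencies at bases 8 to 18 from the 5′ end and at bases 12 to 22 from the 3′ end. The letters held by most tRNA genes were TGGCNNAGTGG for the A box and GGTTCGANTCC for the B box, each 11 bases. A match was a window that scored at least as high as the lowest 5% of the tRNA genes did at their own box, 10.4 bits for the A box and 9.52 bits for the B box, searched on the strand of the gene from 120 bp before the 5′ end to 15 bp inside it. A pair was an A box with a B box starting 25 to 60 bp after it. These matrices, the window, the spacing and the threshold were all set after the upstream sequences had been read, and 4 percentile thresholds were tried, of which the one used is the loosest.

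An A box match was present at 31 of the 49 genes with an optimal summit (63.3%), 11 of the 62 with only a pooled region (17.7%) and 7 of the 235 with neither (2.98%), beside 0.956% of all nuclear genes. For the B box the counts were 23 (46.9%), 12 (19.4%) and 4 (1.70%), beside 0.751%. A pair was present at 17 (34.7%), 8 (12.9%) and 1 (0.426%), beside 0.0874%. At least 1 box was found at 37 of the 49 genes (75.5%), 15 of the 62 (24.2%) and 10 of the 235 (4.26%). The order was the same for each measure. The number of matches depended on the threshold: at the 10th, 20th and 25th percentiles of the tRNA scores, the pairs at optimal genes numbered 15, 4 and 3, at pooled-only genes 7, 2 and 2, and at the rest 1, 1 and 1. Among the sequences printed above, the pairs of W03C9.9, Y38F2AR.14, C41C4.11, M106.6 and F11A10.9 no longer counted at the 20th or 25th percentile.

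**Figure D4:**
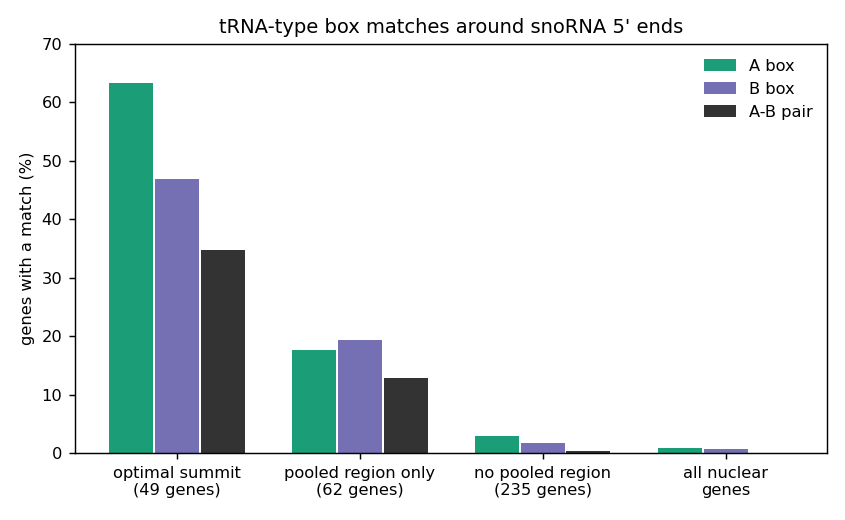
Percent of genes with an A box match, a B box match or an A-B pair (vertical axis) among snoRNA genes with an optimal summit, with a pooled region only and with no pooled region, and among all nuclear genes (horizontal axis). The A box bar falls from 63.3% through 17.7% to 2.98%, and the pair bar from 34.7% through 12.9% to 0.426%.

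Read the other way, all 26 snoRNA genes with a pair had a region in at least 1 list, 25 (96.2%) had one in the pooled list and 17 (65.4%) in the optimal list. The exception in the pooled list was Y59E1B.14 on X, with a signal of 9.01 in replicate 1 alone. The share of all nuclear genes with a region in at least 1 list was not counted. Of the 23 genes with only an A box match, 14 had an optimal summit, and of the 13 with only a B box match, 6 did. Among the 284 genes with no box match, 59 (20.8%) had a pooled region, against 22.9% of all genes, and 12 (4.23%) had an optimal summit, against 1.18% of all genes. No annotated tRNA gene overlapped the searched window of any snoRNA gene. Genes of other biotypes, pseudogenes among them, were not looked for there. At T08B2.13, which had a pair, and at D1046.6, an annotated pseudogene lay within 100 bp of the optimal summit.

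The boxes of a pair were spaced as in tRNA genes. From the start of the A box to the start of the B box the median was 43.5 bp over the 26 pairs (range 42 to 51), and over the tRNA genes it was 43 bp (quartiles 43 and 44). The pair search allowed 25 to 60 bp. Between the end of the B box and the annotated 5′ end of the snoRNA gene lay a median of 4 bp (quartiles 1 and 7, range -5 to 17). A negative value means that the box ran into the gene. At the median, the gene thus began where the 3′ part of a tRNA would stand. In the 17 genes with a pair and an optimal summit, the summit was a median of 5 bp after the start of the A box (quartiles 0 and 13) and 38 bp before the start of the B box. For the 105 tRNA genes with an optimal summit the same medians were 5 bp after the A box (quartiles -22 and 32) and 41 bp before the B box.

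**Figure D5:**
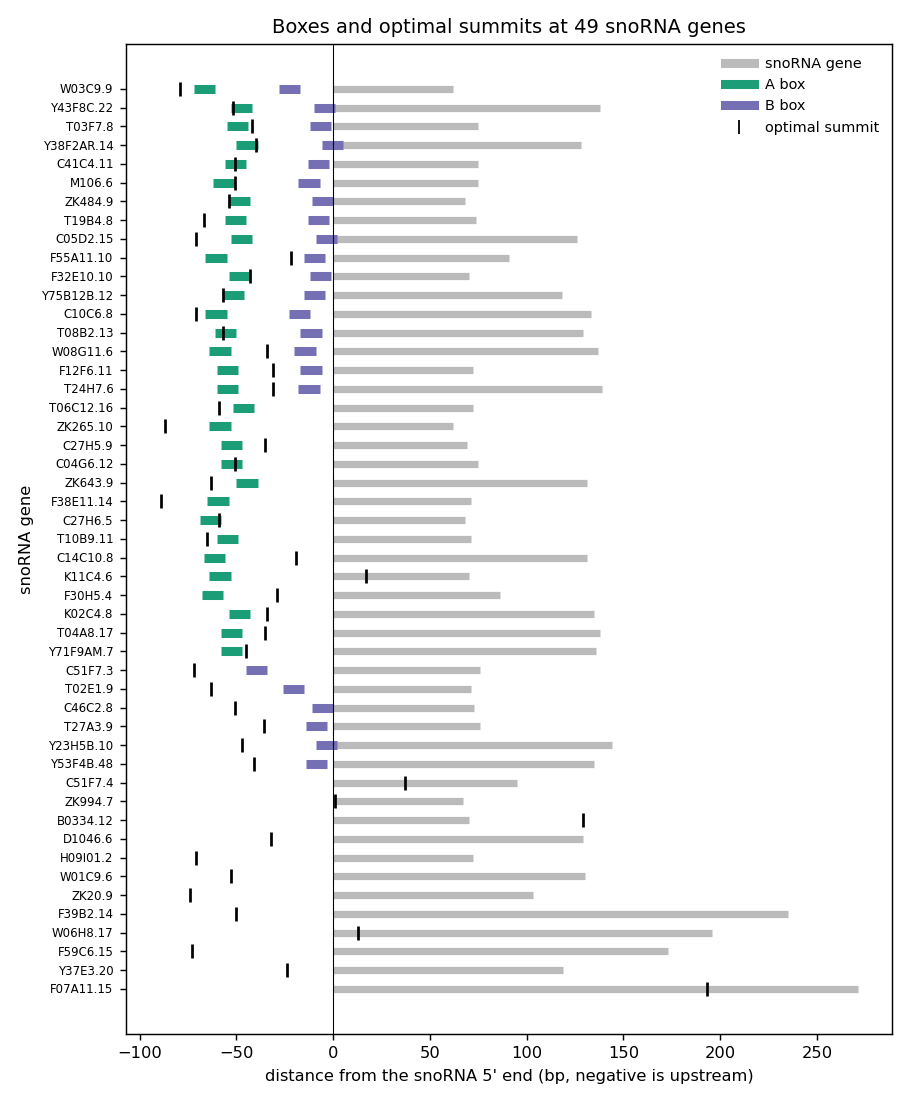
Each row is 1 of the 49 snoRNA genes with an optimal summit, drawn by distance from its 5′ end in bp (horizontal axis): the gene in grey, the A box in green, the B box in purple and the summit as a black tick. Rows are grouped by the boxes found and then ordered by signal; in the 17 rows with a pair, the boxes start a median of 43 bp apart and the ticks lie near the A box.

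Intronic genes held boxes at least as often as the others. With an optimal summit, 19 of the 25 intronic genes had an A box (76.0%) and 12 a B box (48.0%), against 12 (50%) and 11 (45.8%) of the 24 outside introns. A pair was found at 11 intronic genes and 6 others. Over all 26 pairs, 15 lay in an intron on the host's strand, 3 in an intron on the opposite strand and 8 between protein-coding genes. Genes with an optimal summit lay in introns with a median of 301 bp, and the other intronic genes in introns with a median of 541 bp.

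A run of TTTTT within 30 bp after the 3′ end was present at 29 of the 49 genes with an optimal summit (59.2%), 20 of the 62 with only a pooled region (32.3%) and 42 of the 235 with neither (17.9%), beside 24.9% of all nuclear genes. In introns on the host's strand it followed 13 of the 18 genes with an optimal summit (72.2%).

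The upstream GC content moved with these groups. Over the 100 bp before the gene its median was 55% with an optimal summit, 49% with only a pooled region and 41% with neither, and 31% over all nuclear genes. Among snoRNA genes with at least 50% GC there, a box match was found at 33 of 40 (82.5%), 9 of 30 (30%) and 3 of 46 (6.52%) in the same order. That split was chosen after the data had been seen, and the part of GC content in the box matches was not tested.

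Short words, searched on both strands of the same 100 bp, gave a similar picture. GTTCGA, the core of the B box, was present at 15 of the 49 genes with an optimal summit (30.6%), at 8.06% of those with only a pooled region and at 3.83% of those with neither, beside 2.97% of all genes. Among 6-letter words more frequent with an optimal summit than without, it had the largest difference in share, ahead of GGCGCA (26.5% against 6.40%) and AACCAC (22.4% against 2.69%). Words rich in A and T went the other way, with a larger difference for AAAAAT (6.12% against 37.4%). GAGAG was present at 36.7%, 30.6% and 19.6% of the 3 groups, beside 13.5% of all genes, and TATAAA at 12.2%, 6.45% and 11.9%, beside 17.5%. TAATTA, a homeodomain-type site, was rare throughout, at 0 of the 49 genes, 3.23% of those with only a pooled region and 3.40% of those with neither, beside 6.13% of all genes. The shorter ATTA was at 6.12%, 37.1% and 52.3%, beside 71.1% of all genes. Within 50 bp of the 49 summits TAATTA was also at 0 and ATTA at 10.2%.

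The 12 genes with an optimal summit and no box match differed among themselves. Their median optimal signal was 128, against 145 for the 37 with a match, and their median summit position was -28. At C51F7.4, the box was that of its neighbour C51F7.3, a B box within 100 bp of the shared summit. The best A box score there, on the strand of C51F7.4, was 10.39 bits against a threshold of 10.42. At B0334.12 a pair lay on the strand opposite to the snoRNA, around the downstream summit, with a spacing of 43 bp. W01C9.6 scored 10.2 bits for the A box, just under the threshold, and D1046.6 scored 8.55 bits for the A box and 5.22 bits for the B box. Y37E3.20, F59C6.15, F39B2.14, ZK994.7 and F07A11.15 had no window within 100 bp of the summit that scored above 6 bits for either box on either strand. ZK994.7 was nonetheless among the strongest intronic genes, at 231. F07A11.15, in din-1, had the lowest replicate 3 signal, 17.2, of the 47 genes with an optimal summit and a region in that replicate.

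The strongest pooled regions without an optimal summit were at Y39G10AR.24 (pooled signal 78.0), F11A10.9 (63.3), H04D03.5 (52.7), the snoRNA gene annotated as smy-2 (52.7) and ZK546.18 (49.3). A box pair was found at 4 of these 5, the exception being smy-2. In replicate 1 their signals were 27.9, 15.8, 30.3 and 24.8 for the first 4, with no region at ZK546.18. In replicate 3 they were 47.9, 41.5, 23.8, 28.7 and 42.1. Among the 62 genes with only a pooled region, the 15 with a box match had a median pooled signal of 32.0 and the other 47 had 21.8.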

How the data were processed

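The peak lists of the 2 libraries were used in the ce11 build, which is WBcel235. Per the notes deposited with the libraries, each replicate list and the pooled list hold peaks and background regions called against 1 control. By the same notes, the optimal list holds those that passed an IDR cutoff (irreproducible discovery rate, a measure of rank agreement between sets of peaks). The aligner, caller and versions are not given in the sources used here. Signal is the authors' deposited peak height, used only to rank and describe regions. The deposited −log10 q-value filtered 1 alternative, and the deposited score of the optimal list was not used further. No read counts were used, so the depth is unknown. Genes came from Ensembl release 115 and sequence from the RefSeq copy of WBcel235. Where several summits were in reach, the one with the highest signal was taken. Box matrices added 1 count per base and were scored as log2 odds against a 65% AT background. Distances, introns and box scans were tested on simulated data. Analyses used Python 3.11.15, pandas 2.3.3 and numpy 2.4.6. No statistical test was run, since there is 1 group, and lists are described by counts beside all nuclear genes. Named genes were the 12 strongest outside and 8 strongest inside introns, the 5 with the largest rank differences, those with a summit inside the gene or shared, 3 on either side of the distance limit, and the 5 strongest with only a pooled region; genes named for their boxes were chosen after their values were seen. The members, lists and motifs were chosen with earlier results of these data known. Alternatives changed the distance, list, threshold, replicate, definition of intronic and box threshold.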

Additional observations from a re-analysis of the deposited data

How the results depend on the processing

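Of 60 alternatives, 36 left a result in place, 23 moved it and 1 reversed it. In place meant a count within a factor of 1.5, or a median position shifted by less than the SD over the 2 replicates. That SD was 0.71 bp for optimal and 3.54 bp for pooled positions, so -51 counted as moved from -50. Counts of genes with an optimal summit changed most with a shorter distance: 24 genes at 50 bp (14 intronic and 10 outside introns) and 5 at 0 bp (3 and 2), against 52 at 200 bp and 53 at 300 bp. Most summits lie upstream of the gene, so a shorter distance leaves them out by construction. With the strongest regions of 1 replicate in place of the optimal list, the count ran from 40 to 48 genes, from 19 to 25 for intronic genes and from 21 to 23 for the others. The pooled count was 69 at 50 bp, 25 at 0 bp and 54 with a −log10 q of at least 2. The median optimal position was -33 at 50 bp, -51 at 200 bp, at 300 bp, for the stronger optimal peaks and for the strongest pooled regions, and ran from -45.5 to -44.5 with single replicates. At 0 bp it became 17, since upstream summits no longer count. The median pooled position was -24 with the nearest region.

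The box thresholds were added after the data had been seen, and the threshold reported is the loosest of the 4 percentiles tried. At the 20th percentile of the tRNA scores 19 optimal genes had an A box, 11 a B box and 4 a pair, and at the 25th percentile 19, 8 and 3, against 31, 23 and 17 as reported. The 10th percentile gave 28, 21 and 15, and a score of at least 8 bits gave 36, 25 and 22. Only the score threshold differs between these counts. By construction, at most 25% of the tRNA genes score below the 25th percentile at their own box. That percentile kept 19 of the 31 A box matches and 8 of the 23 B box matches at optimal genes. The median score of the tRNA genes was 14.5 bits for the A box and 19.5 bits for the B box. Whether the snoRNA matches score lower than the boxes of tRNA genes was not tested. No paired analysis was possible because there is 1 group and no test. With 2 libraries and no read depth, absence of a region does not show absence of the protein.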

Other observations

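Box matches were also counted within 100 bp of the optimal summits, on both strands. Of the 100 summits near a tRNA gene 92 had a pair, and of the 49 near a snoRNA gene 18 did. The box model and its threshold came from the tRNA genes themselves, so their count is high by construction. Of the 370 summits near neither kind of gene, 4 (1.08%) had a pair and 42 (11.4%) at least 1 box. Of all 24215 pooled regions, 1.66% had a pair and 7.69% at least 1 box. The 4 were at tba-7 with 3 non-coding RNA genes (signal 145), in unc-104 at the pseudogene WBGene00023260 (107), at T22B2.12 and T22B2.9 (87.0) and at ZK816.8 and ZK816.9 (81.9), the last 2 sites being at non-coding RNA genes on X.

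Another non-coding RNA gene lay within 100 bp of the same summit at 17 of the 49 snoRNA genes with an optimal summit. The same count was not made for other optimal summits or other genes, so it has no background beside it.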
